A study of Mus musculus with 9 samples.

Results

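Immunoglobulin variable-region genes (V genes) were measured by bulk RNA sequencing of mouse nigral tissue, and 148 of the 348 V genes of the GENCODE M21 annotation are described. They were chosen by 2 criteria, a symbol that starts with Ighv, Igkv or Iglv followed by a digit and at least 20 reads summed over the 9 libraries. They are thus selected on their counts, and being detected is no finding. The 148 genes are 69 heavy chain genes (Ighv), 76 kappa light chain genes (Igkv) and 3 lambda light chain genes (Iglv), out of 55450 genes counted. Reads on the 148 genes are called V reads below, and the share of a library's V reads that fell on a gene is its usage.

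Tissue was dissected by hand from the substantia nigra of saline-perfused male mice 5 weeks after lentiviral transduction, with 3 libraries per group. The control libraries (CTR) came from CX3CR1-CreERT2 mice given a Cre-inducible vector for GFP, a destabilized form by the study's own description. The CX3 libraries came from CX3CR1-CreERT2 mice and the DAT libraries from DAT-Cre mice, both given the Cre-inducible Synuclein-expressing vector. CX3CR1-CreERT2 acts in microglia and other cells with an active Cx3cr1 promoter and needs tamoxifen, which was injected for 4 days after surgery, and DAT-Cre acts in dopaminergic neurons through the dopamine transporter gene. Tamoxifen is described for CX3CR1-CreERT2 mice, so DAT differs from CTR in Cre line, vector and tamoxifen together, and these cannot be told apart. The mice are given as 8 or 9 weeks old in different places. How many animals gave a library, and whether the libraries of a group came from different animals, is not given in the sources used here, so p-values measure only the spread between these libraries, which may be technical.

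Each developing B cell joins 1 V gene to D and J segments (heavy chain) or to a J segment (light chains), and the joined exon encodes the variable domain that binds antigen. The V gene supplies the leader peptide and most of that domain, including the first pair of the 3 antigen-contacting loops, and the third loop is formed at the join. Antibody-secreting cells derived from B cells make very large amounts of this RNA, and a clone keeps the V genes it chose, so the usage of V genes in a tissue reflects which clones and cells are in it. The question put to the data here was how usage compares between libraries of a group and between the groups.

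Reads counted on genes ranged from 21592817 to 39475428 per library, with DAT library B the lowest and DAT library A the highest. A count of 3 equals 0.0779 to 0.151 CPM (counts relative to the library's size normalized by TMM), and such floors and all counting comparisons cover counting error only. Over genes other than V genes, the squared difference between libraries was 1.45 to 1.79 times that of sampling in CTR and 2.51 to 6.29 times in CX3. In DAT it was 11.2 and 15.4 times for the pairs with library B and 2.19 times for the other pair, so library B stood apart. The 6 marker genes of nigral dopaminergic neurons were detected in all groups, with a summed level of 414 to 417 CPM in CTR, 590.2 to 598 in CX3 and 351 to 355 in DAT.

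The germline sequences of the leading heavy and kappa gene of each group show the part of the V gene that borders the join. They are the last 90 coding bases, 5′ to 3′, from the GENCODE M21 transcripts (GRCm38, the mm10 build), and capitals run from the last cysteine codon, which opens the third loop, to the end of the V gene. In CTR the leaders were Ighv1-15 (ENSMUSG00000103254.1, chr12:114657353-114657786, minus strand) and Igkv19-93 (ENSMUSG00000098814.2, chr6:68736297-68736780, minus strand). In CX3 they were Ighv1-81 (ENSMUSG00000094689.1, chr12:115920279-115920712, minus strand) and Igkv6-32 (ENSMUSG00000076576.2, chr6:70074024-70074603, minus strand). In DAT they were Ighv1-53 (ENSMUSG00000093894.1, chr12:115158403-115158835, minus strand) and Igkv3-4 (ENSMUSG00000096715.2, chr6:70671788-70672377, plus strand).
Ighv1-15: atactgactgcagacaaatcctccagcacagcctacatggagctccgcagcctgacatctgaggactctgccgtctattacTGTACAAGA
Ighv1-81: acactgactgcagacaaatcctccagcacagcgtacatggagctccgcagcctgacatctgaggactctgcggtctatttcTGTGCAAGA
Ighv1-53: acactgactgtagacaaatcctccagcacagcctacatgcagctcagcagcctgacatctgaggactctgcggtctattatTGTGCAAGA
Igkv19-93: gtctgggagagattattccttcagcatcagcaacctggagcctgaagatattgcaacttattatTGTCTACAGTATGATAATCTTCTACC
Igkv6-32: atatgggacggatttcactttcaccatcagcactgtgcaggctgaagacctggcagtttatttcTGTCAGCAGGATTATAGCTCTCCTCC
Igkv3-4: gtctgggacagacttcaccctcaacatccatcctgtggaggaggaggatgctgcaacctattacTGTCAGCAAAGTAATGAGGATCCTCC
The 3 heavy leaders belong to the same subgroup, Ighv1, and end 9 bases after the start of the cysteine codon, while the kappa leaders come from 3 subgroups and carry 26 bases from that point. A cysteine codon lies within 30 bases of the end in 69 of 69 heavy, 75 of 76 kappa and 2 of 3 lambda members. A tyrosine codon lies 2 codons before the last cysteine codon in 68 of the 69 heavy members. The exception is Ighv3-8, with 4 bases from the start of its last cysteine codon to the end.

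V reads were most abundant in the control tissue and least in DAT. They numbered 39122, 46761 and 39317 in the 3 CTR libraries, 6877, 6275 and 7082 in CX3, and 1173, 585 and 704 in DAT. In summed CPM the CTR libraries held 1285, 1285 and 1311, the CX3 libraries 179, 181 and 184, and the DAT libraries 32.2, 29.4 and 30.9. The groups did not overlap. The mean was 1293 ± 15.0 CPM in CTR, 181 ± 2.91 in CX3 and 30.8 ± 1.38 in DAT (SD, n = 3 libraries), so CTR held 7.13 times the level of CX3 and 42.0 times that of DAT, and CX3 held 5.88 times that of DAT. In bulk tissue, fewer cells and less RNA per cell cannot be told apart. Kappa genes took 66.4% ± 0.331 of V reads in CTR, 73.9% ± 0.873 in CX3 and 66.2% ± 2.34 in DAT, and lambda genes took 1.49%, 1.24% and 1.87%.

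**Figure D1:**
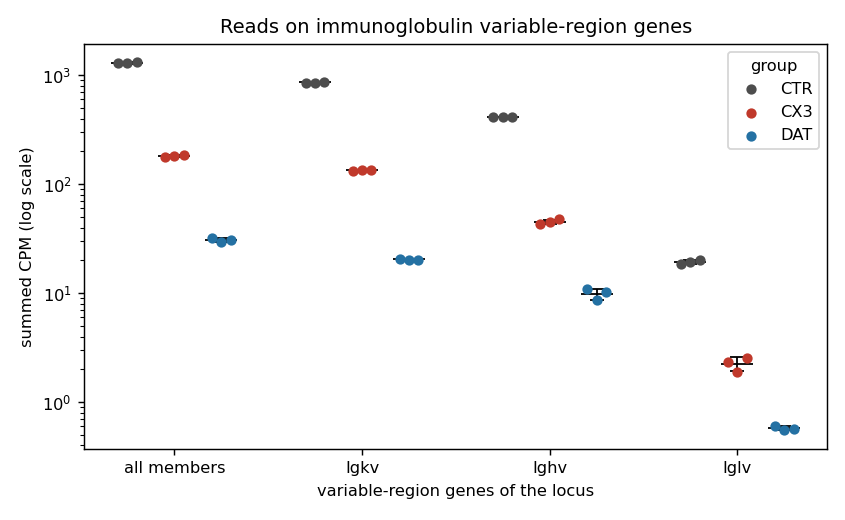
Summed CPM (log scale) of all members and of the Igkv, Ighv and Iglv members in each library, with the mean and SD of each group (n = 3). In each set the CTR libraries lie highest and the DAT libraries lowest, with no overlap, from 1285 to 1311 CPM down to 29.4 to 32.2 CPM for all members.

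Most constant-region and secretion genes of the antibody pathway were also lower than in CTR. Of 12 constant-region genes, which encode the antibody stem, 10 fell and 1 rose in CX3 against CTR (edgeR's quasi-likelihood test, adjusted p under 0.05 over all genes tested), and 11 fell in DAT against CTR. The one that rose was Ighe, at 0.127 ± 0.0423 CPM in CTR and 0.304 ± 0.0297 in CX3. Over all genes tested, 16.5% fell and 14.0% rose in CX3 against CTR, and 27.9% fell and 32.0% rose in DAT against CTR. The summed level of the 12 constant-region genes was 2946 to 3004 CPM in CTR, 417 to 452 in CX3 and 93.9 to 107 in DAT. Igkc, the kappa constant region, had 1055 ± 19.4 CPM in CTR, 167 ± 8.69 in CX3 and 25.8 ± 4.04 in DAT, and the number of kappa V reads per Igkc read stayed between 0.666 and 0.894 in the 9 libraries. The number of heavy V reads per heavy constant-region read was 0.215 to 0.220 in CTR, 0.157 to 0.185 in CX3 and 0.112 to 0.151 in DAT, without overlap between the groups. Ighm, the constant region of IgM, took 18.6% to 19.2% of heavy constant-region reads in CTR, 29.9% to 30.6% in CX3 and 59.6% to 62.7% in DAT. Of 8 genes of antibody assembly and secretion, 7 fell in CX3 and 7 in DAT against CTR, among them Jchain, which joins antibody units, at 298 ± 9.22, 71.9 ± 2.56 and 8.79 ± 1.49 CPM in CTR, CX3 and DAT. Of 5 genes of V gene rearrangement and mutation, 2 passed the filter on low counts, and Rag1, a subunit of the recombinase, was at 0.264 ± 0.0648, 0.341 ± 0.0777 and 0.331 ± 0.0459 CPM, with no call in the 3 comparisons. The other, Ung, which removes uracil from DNA, was at 1.75 ± 0.289, 2.18 ± 0.190 and 2.93 ± 0.297 CPM and was higher in DAT than in CTR (log2 change 0.73, edgeR, adjusted p = 0.00139) and lower in CX3 than in DAT (adjusted p = 0.0329). Ighd, the constant region of IgD, and Pou2f2, a transcription factor of the secretion list, had no call against CTR.

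Markers of the cells that could carry V reads, or that could come with another dissection, differed between the groups too. Of 9 B cell markers 5 fell in CX3 against CTR, and in DAT 6 fell and 1 (Pax5) rose. They summed to 28.7 to 31.7 CPM in CTR, 17.8 to 18.4 in CX3 and 19.5 to 24.98 in DAT. Pax5 made up most of the DAT sum, at 8.55 ± 0.540, 8.40 ± 0.516 and 15.7 ± 2.83 CPM in CTR, CX3 and DAT. The sums thus do not rank CX3 and DAT for the other markers. In CX3 against DAT, 2 of the 9 (Cd79b and Cd22) were higher and 1 (Pax5) was lower, where 27.6% and 31.3% of all genes were. Of 9 markers of antibody-secreting cells 8 fell in each comparison with CTR. They summed to 455 to 483 CPM in CTR, 182 to 191 in CX3 and 116 to 132 in DAT. Xbp1 made up most of the DAT sum, at 134 ± 5.81, 94.1 ± 1.96 and 102.5 ± 7.21 CPM in CTR, CX3 and DAT. The sums thus understate the fall of Jchain given above. Over all genes tested, 16.5% fell in CX3 and 27.9% in DAT against CTR, and 14.0% and 32.0% rose. T cell markers (5 genes) summed to 45.5 to 47.6, 38.6 to 40.8 and 10.8 to 13.0 CPM. Hemoglobin and other erythroid genes (5 genes) summed to 242 to 267, 94.5 to 108 and 187 to 266 CPM. Choroid plexus markers (4 genes) summed to 28.2 to 30.7, 1446 to 1558 and 840.1 to 1009 CPM, and meningeal fibroblast markers (4 genes) to 137 to 139, 112 to 118 and 229 to 234 CPM. No marker of these lists was at 0 in all libraries, and the part of these cell types in the V reads was not tested.

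The exons of the members span 338 to 425 bases, and the leading heavy and kappa gene of each group was the same by CPM and by CPM per kilobase of exon. Leaders were named for their level in a group, so a difference in favour of that group is a description even where a fitted value stands beside it. In the control tissue, Igkv19-93 was the most used V gene. It had 3330, 4076 and 3529 reads in the CTR libraries, 57, 82 and 88 in CX3 and 21, 10 and 19 in DAT. Its usage of 8.74% ± 0.233 in CTR (SD, n = 3) compared with 1.13% ± 0.259 in CX3 and 2.07% ± 0.549 in DAT, so it was lower in both as a share as well as in level. In CX3 against CTR its level changed by −5.79 ± 0.10 on the log2 scale (± SE, edgeR, adjusted p = 4.66e-14). The heavy chain leader Ighv1-15 had 1768, 2213 and 1876 reads in CTR, 6, 3 and 2 in CX3, and 30, 18 and 30 in DAT. It thus had fewer reads in each CX3 library than in any DAT library, although CX3 held more V reads. Its log2 change in CX3 was −9.20 ± 0.15 against CTR (adjusted p = 2.49e-14) and −3.27 ± 0.34 against DAT (adjusted p = 1.58e-06). Its usage was 4.67% ± 0.136 in CTR, 0.0544% ± 0.0301 in CX3 and 3.30% ± 0.873 in DAT.

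The next kappa genes of the control tissue were Igkv13-84, Igkv3-12, Igkv6-17 and Igkv6-23. Igkv3-12 had 1220, 1472 and 1120 reads in CTR, 17, 13 and 13 in CX3, and 1, 0 and 0 in DAT. Igkv6-23 had a usage of 2.88% ± 0.0342 in CTR and 2.38% ± 0.530 in DAT, against 0.383% ± 0.0725 in CX3. Among heavy genes Ighv5-4 had 1112, 1263 and 1018 reads in CTR, 4, 5 and 2 in CX3, and 3, 1 and 1 in DAT, and Ighv3-6, Ighv1-80 and Ighv1-26 followed with 583 to 1073 reads per CTR library. Igkv4-62, singled out after its values were seen, had 1035, 1200 and 1031 reads in CTR, 1, 1 and 0 in CX3 and none in DAT, which is at least 891-fold lower in DAT when 3 counts over the group are taken as the floor.

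In the CX3 tissue the leading V gene was Igkv6-32, with 838, 743 and 913 reads. The CTR libraries, although they held more V reads, had 151, 212 and 207, and the DAT libraries 2, 4 and 1. Its usage was 12.3% ± 0.536 in CX3, 0.455% ± 0.0703 in CTR and 0.332% ± 0.305 in DAT (SD, n = 3). It was higher in CX3 in level as well as in share, by 1.92 ± 0.11 on the log2 scale against CTR (edgeR, adjusted p = 1.27e-08) and by 7.92 ± 0.23 against DAT (adjusted p = 4.62e-12). Igkv13-85 had 577, 508 and 596 reads in CX3, 67, 73 and 73 in CTR, and 7, 0 and 0 in DAT, with a log2 change of 2.77 ± 0.15 against CTR (adjusted p = 8.91e-09). The related genes Igkv1-117 and Igkv1-110 took 7.34% ± 0.166 and 7.09% ± 0.260 of V reads in CX3, and 2.32% ± 0.110 and 1.58% ± 0.0294 in CTR. Both had more usage but a lower level in CX3 than in CTR, by −1.17 ± 0.06 and −0.66 ± 0.08 on the log2 scale, and so had Igkv6-15. The 2 Igkv1 genes share 97.2% of their coding bases, and 69.9% and 69.6% of their 76-base words (the length of a read) are their own. Reads over the other words fit more than 1 gene, and counts of this layout leave out reads aligned to several places. A read from one gene could also be aligned to the other.

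Heavy chain usage in CX3 was led by Ighv1-81, with 361, 343 and 375 reads against 458, 515 and 433 in CTR and 13, 3 and 5 in DAT. Its usage was 5.34% ± 0.114 in CX3, 1.12% ± 0.0400 in CTR and 0.777% ± 0.303 in DAT. Ighv1-22 was rare elsewhere, with 152, 142 and 190 reads in CX3, 3, 2 and 11 in CTR, and 2, 6 and 1 in DAT. It was named, and passed the filter on low counts, through its CX3 reads, so no test is given. Ighv1-4 had 91, 88 and 113 reads in CX3, 19, 17 and 14 in CTR and none in the 3 DAT libraries, which puts CX3 at least 69.0-fold above DAT. Ighv2-2 and Ighv1-64 were also higher in CX3 than in CTR, by 0.79 ± 0.17 and 1.71 ± 0.23 on the log2 scale.

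In the DAT tissue 1 gene stood out, Igkv3-4, with 246, 125 and 142 reads. It took 20.8% ± 0.610 of V reads in DAT, 2.17% ± 0.0743 in CTR (854, 1042 and 819 reads) and 0.153% ± 0.0625 in CX3 (6, 10 and 15 reads). Its level was lower in DAT than in CTR, by −2.12 ± 0.09 on the log2 scale (edgeR, adjusted p = 1.02e-10), and lower in CX3 than in DAT, by −4.52 ± 0.17 (adjusted p = 5.68e-11). Ighv1-53 followed with 58, 22 and 31 reads in DAT, 74, 64 and 68 in CTR and 11, 9 and 20 in CX3. Its usage was 4.37% ± 0.593 in DAT against 0.166% ± 0.0268 in CTR, and its level differed least from CTR among the DAT leaders that passed the test, by −0.63 ± 0.22 (adjusted p = 0.0254). Forward-strand counts ended that call, as did leaving out DAT library B, DAT library C, CTR library A or CTR library C, with adjusted p of 0.0581 to 0.0845 (edgeR). The kappa leaders of DAT included 3 Igkv8 genes, Igkv8-24 at 4.18% ± 1.05, Igkv8-30 at 3.42% ± 1.05 and Igkv8-28 at 3.40% ± 0.246 of V reads. Igkv8-28 had 41, 21 and 22 reads in DAT and 0, 2 and 5 in CX3. Counts this low leave single DAT values imprecise, with Ighv1-26 at 12, 0 and 7 reads in the 3 libraries.

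**Figure D2:**
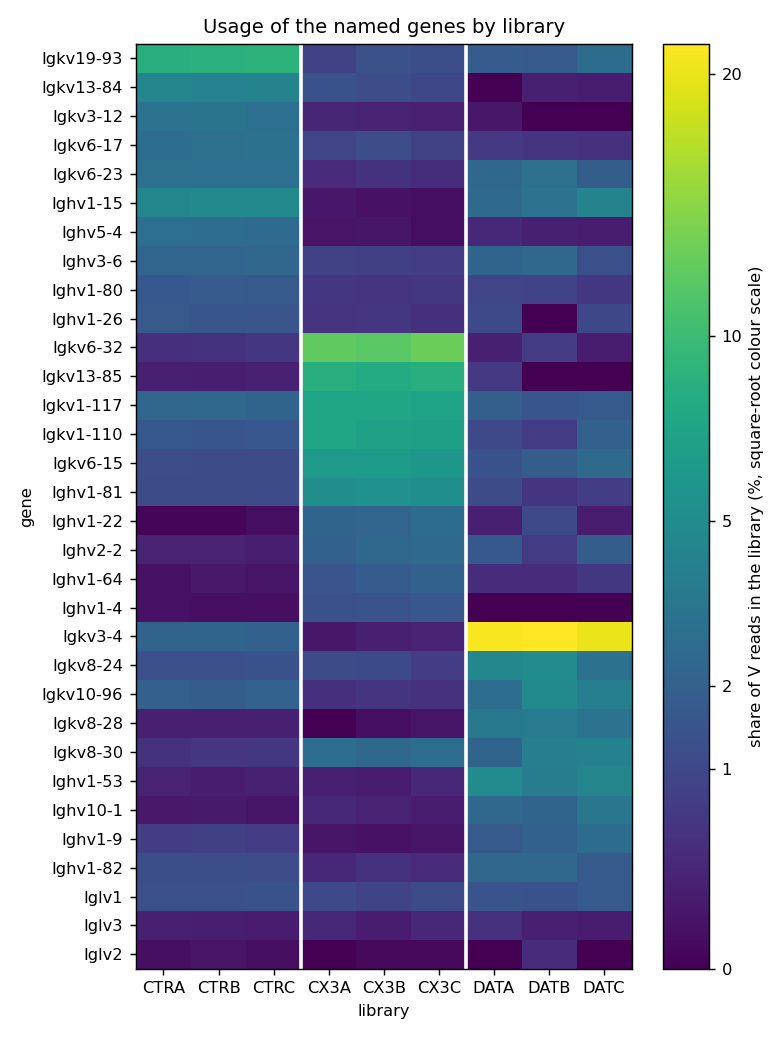
Usage, as a percentage of the V reads of a library on a square-root colour scale, of the 29 leading Ighv and Igkv genes of the groups and the 3 Iglv genes in the 9 libraries. The bright rows change at the group borders, from Igkv19-93 in CTR at 8.74% to Igkv6-32 in CX3 at 12.3% and Igkv3-4 in DAT at 20.8%, and are alike within a group.

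Usage was alike within groups and unlike between them. The usage that 2 libraries share, the sum over genes of the smaller of the 2 shares, was 96.5% to 97.1% between CTR libraries, 93.6% to 94.2% between CX3 libraries and 80.4% to 83.01% between DAT libraries. Between groups it was 29.8% to 32.1% for CTR and CX3, 40.0% to 45.5% for CTR and DAT, and 30.3% to 33.6% for CX3 and DAT. Every pair within a group thus shared more than any pair between groups. Whether the libraries of a group came from different animals is not given, so the likeness within a group may be technical. The DAT libraries hold few V reads, which lowers the usage they can share.

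Sampling of reads sets a scale for these values. Within groups the squared difference in V reads was 1.17 to 1.54 times that of sampling in CTR, 1.25 to 1.73 times in CX3 and 0.961 to 1.20 times in DAT. Genes with few reads in a pair were left out, so the pairs cover different genes. Pairs within CTR cover 135 to 137 of the 148 genes, those within CX3 85 to 90 and those within DAT only 32 to 45. The pairs with DAT library B, which stood apart over other genes, did not stand out in V reads at its depth of 585. Between groups the same measure was 140 to 166 for CTR and CX3, 22.5 to 42.9 for CTR and DAT, and 38.7 to 46.0 for CX3 and DAT, and it grows with the number of reads. Spearman's rho of usage over the 148 genes was 0.989 to 0.992 within CTR, 0.929 to 0.944 within CX3 and 0.757 to 0.849 within DAT, against 0.247 to 0.474 between groups, as a description over genes that share their libraries.

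**Figure D3:**
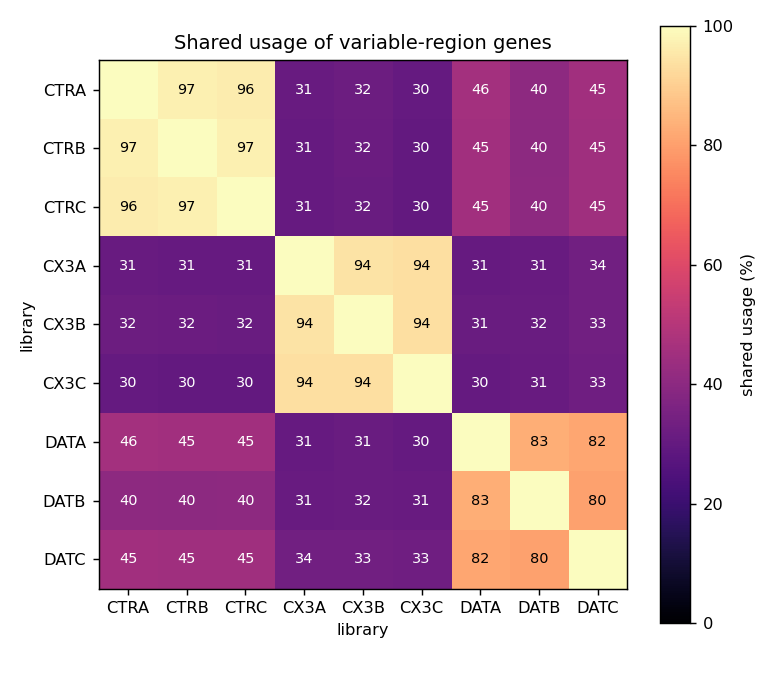
Shared usage (%) of the V genes for each pair of the 9 libraries, with the value in each cell. The 3 blocks within groups hold 80.4% to 97.1%, and the cells between groups 29.8% to 45.5%.

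The groups shared few of their leading genes. Among the 10 most used genes of each group, CTR and CX3 shared 1 (Igkv1-117), CTR and DAT 2 (Ighv1-15 and Igkv6-23) and CX3 and DAT 1 (Igkv8-30), and none was in all 3 lists. Of the 20 most used, 3, 8 and 5 were shared, and Igkv1-117 alone was in all 3. The 10 leaders of CTR took 36.5% ± 0.0938 of V reads in CTR, 11.4% ± 0.565 in CX3 and 10.5% ± 0.964 in DAT. Those of CX3 took 59.3% ± 0.151 at home, 8.79% ± 0.0709 in CTR and 12.0% ± 1.92 in DAT. Those of DAT took 50.5% ± 2.30 at home, 14.7% ± 0.141 in CTR and 5.15% ± 0.202 in CX3. These leaders were picked on the home values, so the home shares are a description.

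V reads were spread over more genes in CTR than in the other groups. The inverse Simpson index, the number of equally used genes that would give the same concentration, was 40.1 to 41.2 in CTR, 20.7 to 21.5 in CX3 and 16.4 to 17.8 in DAT. In each CTR library 17 genes held 50% of V reads, compared with 7 in each CX3 library and 9 to 11 in DAT. In random draws of 585 V reads, the number in the shallowest library, the expected number of genes seen was 89.3 to 90.2 in CTR, 75.0 to 76.4 in CX3 and 82.0 to 85.9 in DAT. By this measure DAT lay between the other groups, whereas by the index it was the most concentrated, with Igkv3-4 alone at 20.2% to 21.4% of V reads.

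The subgroups, families of V genes alike in sequence, shifted mostly in the kappa locus. Among heavy genes, Ighv1 (40 members) took 59.9% ± 0.476, 60.7% ± 2.74 and 60.4% ± 1.17 of Ighv reads in CTR, CX3 and DAT, while its leading genes differed in each group. Ighv5 (7 members) took 11.02% ± 0.235 in CTR, 2.76% ± 0.112 in CX3 and 3.53% ± 1.35 in DAT, and Ighv10 (2 members) 0.322% ± 0.0785, 2.05% ± 0.564 and 8.21% ± 1.50. In the kappa locus, Igkv1 (6 members) took 7.16% ± 0.173 of Igkv reads in CTR, 24.4% ± 0.768 in CX3 and 6.11% ± 0.942 in DAT. Igkv3 (6 members) went the other way, with 11.3% ± 0.453, 1.54% ± 0.0358 and 32.0% ± 1.26. Igkv8 (8 members) took 3.50% ± 0.133, 5.89% ± 0.280 and 18.7% ± 1.45, and Igkv6 (8 members) 15.5% ± 0.237, 27.2% ± 0.624 and 10.1% ± 0.911.

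**Figure D4:**
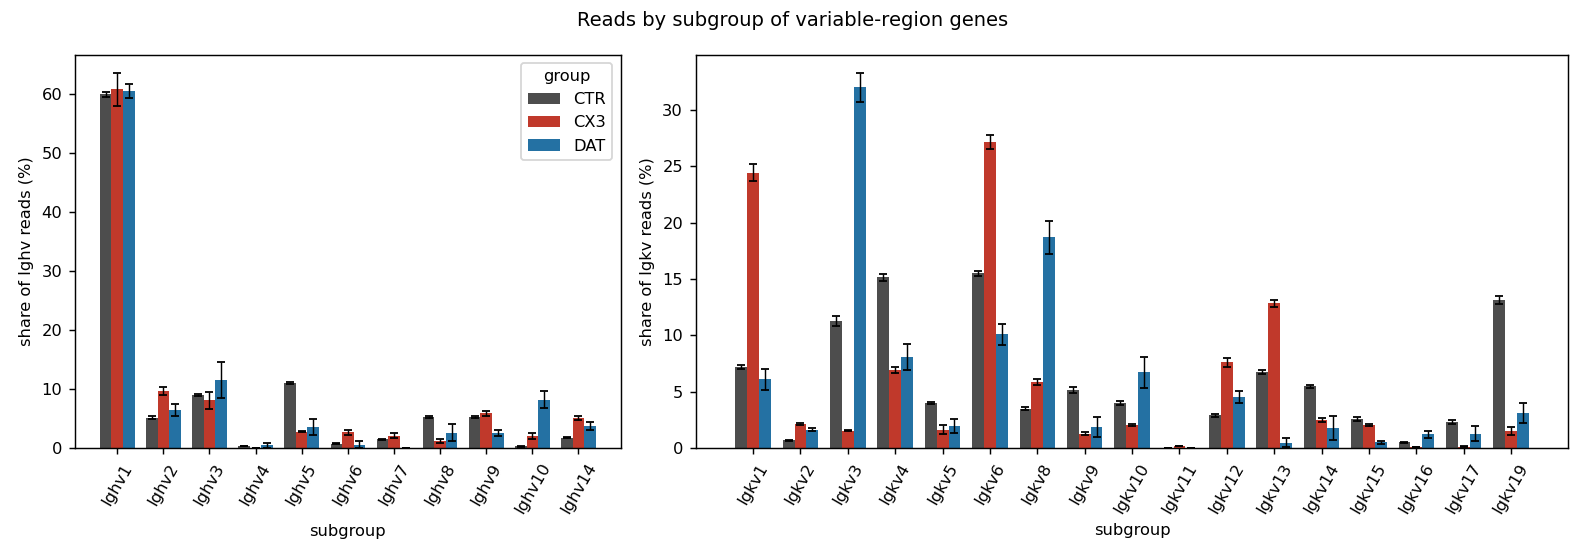
Mean share of Ighv reads (left) and Igkv reads (right) taken by each subgroup in CTR, CX3 and DAT, with error bars of 1 SD (n = 3 libraries). Ighv1 stands near 60% in each group, while Igkv1 and Igkv6 are highest in CX3 and Igkv3 and Igkv8 in DAT.

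Position along the locus differed as well for kappa genes. The Igkv members lie in chr6:67609713-70704177, with 30 on the plus and 46 on the minus strand, and the Ighv members in chr12:113588267-116000461, all on the minus strand. When the annotated Igkv genes are cut by position into 3 nearly equal sets, the set nearest to the constant region took 39.5% ± 0.520 of Igkv reads in CTR, 44.0% ± 0.572 in CX3 and 66.7% ± 1.13 in DAT, where Igkv3-4 lies in it. The corresponding Ighv set took 32.1% ± 0.396, 28.4% ± 0.425 and 22.9% ± 1.75.

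Of the 148 genes, 129 passed the filter on low counts, and the 19 that did not had sums of 20 to 48 reads. A gene that passed through its reads in 1 group had to differ, so the counts here are descriptions. In CX3 against CTR, 108 were lower, where 16.5% of all 20892 genes tested were lower, and 13 were higher, where 14.0% of all genes were higher. The median log2 change was −4.44 over the 129 genes, or −4.42 with genes at 0 in a group set to their bound, and −0.00 over all genes. In DAT against CTR, 123 were lower (27.9% of all genes were) and 0 were higher (32.0% of all genes were) in edgeR's quasi-likelihood test, and also 0 at an unadjusted p under 0.05 and 0 by DESeq2. The median was −5.66, or −5.19 with genes at their bound. In CX3 against DAT, 68 were higher (27.6% of all genes) and 12 were lower (31.3%), with a median of 2.05, or 1.62 at the bound. Each group enters 2 of the 3 comparisons. Of all 148 genes, 1 was at 0 in every CTR library, 10 in every CX3 library and 34 in every DAT library.

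The 13 genes that were higher in CX3 than in CTR, against the general fall, were Igkv6-32, Igkv13-85, Igkv12-41, Igkv2-112 and Igkv9-123 of the kappa locus and Ighv1-22, Ighv1-4, Ighv1-64, Ighv2-2, Ighv14-2, Ighv7-1, Ighv10-3 and Ighv1-62-2 of the heavy locus. Igkv12-41 had 224, 223 and 265 reads in CX3, 23, 20 and 17 in CTR, and 4, 2 and 4 in DAT. Igkv2-112 had 104, 93 and 113 reads in CX3, 1, 2 and 0 in CTR, and 1, 2 and 0 in DAT. Ighv7-1 had 26, 20 and 28 reads in CX3, 0, 1 and 1 in CTR and none in DAT. For Ighv1-62-2 only 8.91% of its 76-base words are its own, so its reads are uncertain. Leaving out 1 library at a time kept 12 or 13 of these calls. Some of these genes, among them Ighv1-22, Igkv2-112 and Ighv7-1, passed the filter on low counts through their CX3 reads. Such genes had to be higher in CX3, so keeping their calls is no support. Igkv11-125, which did not rank among the leaders, had 9, 9 and 8 reads in CX3 and none elsewhere. Names outside the leaders were chosen after their values were seen.

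The 12 genes that were lower in CX3 than in DAT, although CX3 held more V reads, were Igkv3-4, Igkv8-28, Igkv12-98, Igkv14-130, Igkv2-109 and Igkv6-20 and the heavy genes Ighv1-15, Ighv1-53, Ighv1-9, Ighv1-74, Ighv1-75 and Ighv10-1. Fitting only the 6 libraries of the 2 groups left 7 of them, with 63 rather than 129 members tested. Leaving out 1 library at a time kept 9 to 11 of these calls, with 9 kept without DAT library A, and that of Ighv10-1 was lost with reverse-strand counts (edgeR, adjusted p = 0.118). Ighv1-9 had 5, 3 and 5 reads in CX3, 20, 12 and 19 in DAT, and 279, 353 and 270 in CTR. Ighv1-74 had none in CX3, 6, 0 and 1 in DAT, and 81, 74 and 73 in CTR, at least 88.3-fold lower in CX3 than in CTR. Fewer than 50% of the 76-base words of Igkv6-20 are its own, so its reads are uncertain, as are those of Ighv1-71, Ighv1-72 and Igkv8-16.

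**Figure D5:**
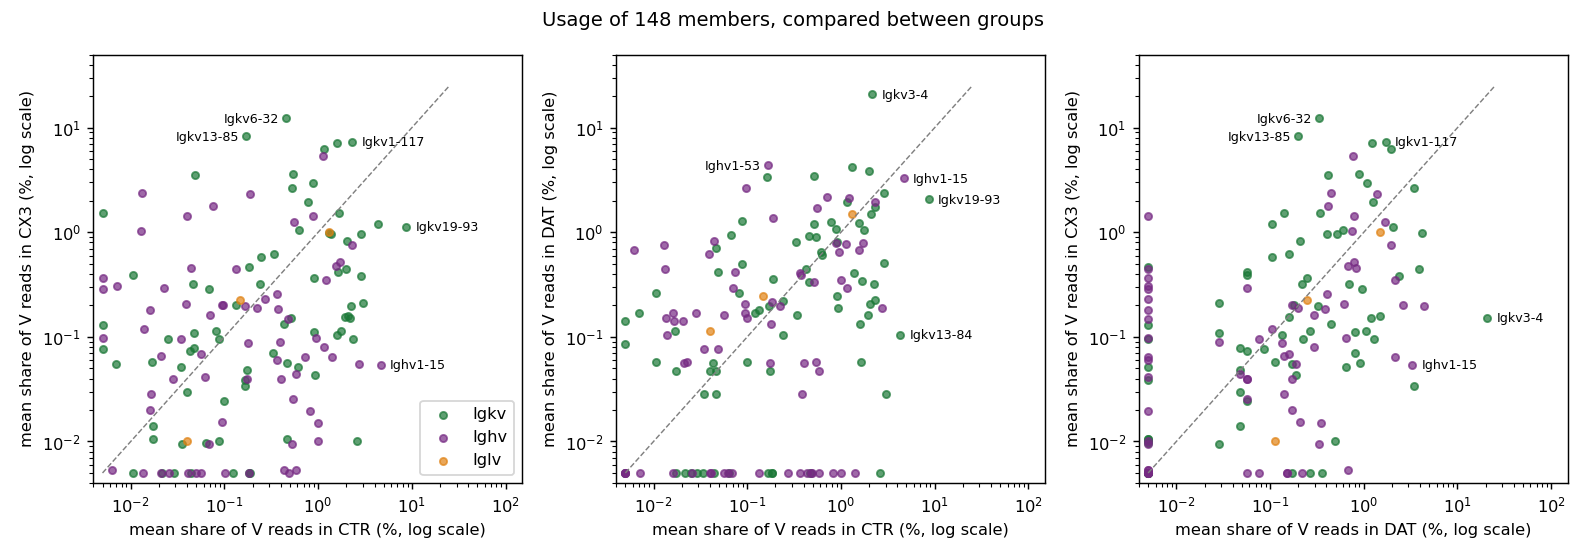
Mean usage (%, log scales) of the 148 genes in CX3 against CTR, DAT against CTR and CX3 against DAT, with Igkv, Ighv and Iglv genes coloured and the dashed line marking equal usage. Usage of 0 is drawn at the lower edge, and Igkv6-32 and Igkv13-85 lie far above the line in CX3, Igkv3-4 in DAT and Igkv19-93 and Ighv1-15 below it.

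In usage, which leaves the total aside, 60 genes had their highest mean in CTR, 40 in CX3 and 48 in DAT, but only 46, 30 and 21 were above all libraries of the other groups in every library of that group, and many DAT means rest on few reads. In level, 126 had their highest mean CPM in CTR, 21 in CX3 and 1 in DAT. Such counts were not made over all genes, so those in usage and in level only describe these members. The nearest other member by coding sequence was 93.6% identical in the median, and it was at least 95% identical for 61 of 148.

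A pair of neighbours, singled out after its values were seen, lies side by side on chromosome 6. Igkv13-84 (ENSMUSG00000076538.1, chr6:68939602-68940067, plus strand) had 1745, 1952 and 1692 reads in CTR, 93, 75 and 72 in CX3, and 0, 1 and 1 in DAT. Igkv13-85 (ENSMUSG00000079543.3, chr6:68930269-68930734, minus strand) had the CX3 reads given above. Usage of Igkv13-84 was 4.31% ± 0.143 in CTR and 1.19% ± 0.168 in CX3, and that of Igkv13-85 0.171% ± 0.0148 and 8.30% ± 0.178. The first 180 coding bases of both hold all 13 differences, shown in capitals, and are printed because reads over them tell the genes apart.
Igkv13-84: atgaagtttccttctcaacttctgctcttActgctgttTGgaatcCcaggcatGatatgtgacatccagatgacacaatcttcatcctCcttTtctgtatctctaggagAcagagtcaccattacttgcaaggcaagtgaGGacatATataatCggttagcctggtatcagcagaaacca
Igkv13-85: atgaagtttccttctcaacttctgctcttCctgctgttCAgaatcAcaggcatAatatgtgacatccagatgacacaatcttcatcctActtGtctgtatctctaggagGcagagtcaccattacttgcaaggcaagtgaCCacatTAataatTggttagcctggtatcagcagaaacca
The coding sequences are 96.3% identical over 347 bases, and the last 193 bases are the same in both. Reads that lie wholly in that end fit both genes equally, and 56.6% of the 76-base words of each are its own.

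Among the 3 lambda genes, Iglv1 had the most reads in each library. Iglv1 had 491, 602 and 540 reads in CTR, 71, 56 and 78 in CX3, and 17, 8 and 12 in DAT, which is 1.31% ± 0.0612, 1.01% ± 0.107 and 1.51% ± 0.176 of V reads. Its mean usage stayed between 1.01% and 1.51% while its level fell, by −3.20 ± 0.10 on the log2 scale in CX3 and by −5.16 ± 0.14 in DAT against CTR (edgeR, adjusted p = 2.39e-11 and 2.1e-12). Iglv3 had 63, 73 and 47, then 19, 8 and 19, and then 5, 1 and 1 reads, and Iglv2 had 13, 27 and 11, then 0, 1 and 1, and then 0, 2 and 0.

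At the edge of the selection, Ighv1-71 and Igkv4-70 were just inside with 20 reads each, and Ighv1-23, Ighv5-12 and Igkv3-7 just outside with 18. Igkv4-70 had 2, 10 and 2 reads in CTR, 0 in CX3 and 2, 2 and 2 in DAT, and Ighv5-12 had 1, 3 and 6, then 4, 2 and 2, and then 0. The 200 annotated genes left out held 408 reads in all, against 148304 over the annotation. All 148 members carry the annotation's class IG_V_gene, which holds 216 genes and is apart from its V pseudogenes. None of the 130 V pseudogenes reached the limit, and the 2 genes of the class IG_LV_gene had no reads.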

How the data were processed

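The authors deposited counts of reads per gene, without normalization, for each of the 9 libraries. Per the labels, libraries were made from high-quality RNA with a stranded mRNA kit, with 76-base reads, and Trimmomatic, STAR, featureCounts and DESeq2 were used on mm10 (versions not given in the sources used here). The layout is that of STAR's gene counts, in which reads aligned to several places are left out. Reads over a V-to-J join or a mutated V gene may fail to align, which was not tested.

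Counts of both strands were used, since about 50% fell on each. All 55450 identifiers matched GENCODE M21 (GRCm38), which gave symbols, coordinates and sequences. Genes were filtered by group with filterByExpr, scaled by TMM and tested with glmQLFTest in edgeR 4.0.16 (R 4.3.3) over all 9 libraries, and p-values were adjusted by Benjamini-Hochberg over all 20892 genes tested. Genes were named as the 5 Ighv and 5 Igkv members of highest mean CPM in each group, all Iglv members and the genes nearest the limit of 20 reads. Usage has no test. The members and gene lists were chosen with earlier results of these data known. Alternatives were other scalings, filters, strands, DESeq2 1.42.0, a replicate block, fewer libraries and, chosen after seeing the data, levels per kilobase and members expected in drawn reads. Scripts were tested on simulated data. Python 3.11.15, numpy 2.4.6, pandas 2.3.3, scipy 1.17.1 and matplotlib 3.10.9 were used.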

Additional observations from a re-analysis of the deposited data

How the results depend on the processing

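Depth limits DAT most, with 585 to 1173 V reads per library. Changes of named genes were refitted only for the 88 comparisons called in the main fit. Most of these genes were named for their level in a group. They were thus selected on the call and on these values, so keeping a call is a description and no support. Of 1227 such refits, 1219 kept their direction and side of the threshold, 8 lost the call and none reversed. Those that lost it were Igkv8-30 in CX3 against CTR, Ighv1-53 in DAT against CTR and Ighv10-1 in CX3 against DAT. Of 90 counts of called members 89 stayed within 1.5 times. The exception was CX3 against DAT, where 7 rather than 12 were lower when only the 6 libraries were fitted and 63 members tested. Correlations of deviations from the group means were −0.16 to 0.0398 for same-lettered libraries and −0.124 to 0.159 for the others. Deviations from means of 3 libraries are tied to each other, so these values cannot decide whether the letters mark pairs. With a replicate block 13 and 107, 0 and 124, and 68 and 12 members were called higher and lower in the 3 comparisons. Scaling by library size alone moved the median of all genes by −0.15 in DAT against CTR and 0.19 in CX3 against DAT, and summed V CPM to 1324 in CTR, 192 in CX3 and 28.5 in DAT. Reverse-strand and forward-strand counts gave 1214 and 1197 in CTR, 169 and 170.3 in CX3, and 26.96 and 27.3 in DAT. The share of the 10 most used members was 36.7% (CTR) and 59.9% (CX3) with reverse-strand counts, 58.9% (CX3) and 54.5% (DAT) with forward-strand counts, and 37.4%, 62.5% and 56.4% in CTR, CX3 and DAT over members with at least 200 reads. Shared usage of CTR and CX3 was 29.98% with reverse-strand counts and 29.5% within loci, and that of CX3 and DAT 29.5% with forward-strand counts and 33.2% within loci. The squared difference relative to sampling in DAT was 0.716 and 1.77 with reverse-strand and forward-strand counts. Leaving out 1 library leaves 1 pair in its group, so for this measure it only repeats the values of the pairs. These were 1.17 to 1.54 in CTR, 1.25 to 1.73 in CX3 and 0.961 to 1.20 in DAT. The causes were not tested.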
